A study of Homo sapiens with 4 samples.

Results

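The comparison described here sets PC-3 cells that overexpress hTERT, the catalytic subunit of telomerase, against a line of the same long-telomere background in which Cre had removed the added hTERT. It takes 2 of the 4 arrays of the series and every probe set that is not an Affymetrix control, 54613 of 54675. Of these, 41091 carry 1 gene symbol and were averaged into 19775 genes. PC-3 is an established human prostate cancer cell line that grows without androgen and lacks functional p53. The line called LhTERTL has overexpressed hTERT and long telomeres and was not labelled as Cre-exposed. The line called LhTERTL/cre+ has basal hTERT and long telomeres. Both short-telomere lines, mock/cre+ and mock, have basal hTERT, and only the first carries the Cre label. RNA was taken from dishes near confluence, and 100 ng of total RNA was labelled for each array. The labels do not say how Cre was supplied, which promoter drove hTERT, how long the telomeres were, or whether a line is 1 clone.

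Telomerase adds telomeric repeats to chromosome ends from an RNA template, and most somatic human cells silence the TERT gene while most cancer cells keep it active. Cre recombinase cuts out DNA that lies between a pair of loxP sites, so a transgene flanked by them can be withdrawn after it has done its work. Telomeres that were lengthened while hTERT was present can then be studied with only the cell's own telomerase.

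LhTERTL and LhTERTL/cre+ share long telomeres and differ in hTERT, but Cre exposure changes together with hTERT between them, and the 2 cannot be told apart within the pair. The short-telomere pair differs in Cre exposure with basal hTERT on both sides and shares no array with the long-telomere pair. It is given beside many results, though not all, as mock minus mock/cre+. Both differences thus run as the line without Cre minus the line with Cre. A result without it says nothing about that pair. Each line was measured on 1 array, so no difference has a replicate check and none was tested. A gene or probe set at least 2-fold apart, a log2 difference of 1 or more, is counted as past the 2-fold mark. The deposited values are log2 values centred on each probe set's median over the 4 arrays. Values therefore say how the arrays differ and not how strongly a gene was expressed, and the middle 2 arrays lie equally far on either side of 0 for each probe set. The authors also deposited 2 probe lists with values per array. In the list of higher probe sets every value equals this table's under the same label, within 1e-05. In the list of lower probe sets every row equals it only once the LhTERTL and mock/cre+ columns are exchanged. The table's own labels were followed here, and every value of LhTERTL and mock/cre+ rests on them. Because RNA came from bulk cultures, fewer cells of a kind and less RNA per cell cannot be told apart.

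The SD of the centred probe set values was 0.335 in LhTERTL, 0.1795 in LhTERTL/cre+, 0.254 in mock/cre+ and 0.209 in mock. LhTERTL was thus the array farthest from the centre over all probe sets. The median difference over all genes was -0.01 between LhTERTL and LhTERTL/cre+ and 0.03 between mock and mock/cre+.

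TERT itself was read by 2 probe sets that went in opposite directions. The first stood at 3.54 in LhTERTL and -0.16 in LhTERTL/cre+, with -0.12 in mock/cre+ and 0.12 in mock. LhTERTL was 13.0-fold above LhTERTL/cre+ on it, and the other 3 arrays lay close together. Only 38 probe sets, 0.0696% of all, differed by as much or more in that direction. The second probe set stood at -0.66 in LhTERTL and 0.10 in LhTERTL/cre+, with -0.06 in mock/cre+ and 0.06 in mock. Here LhTERTL was the lowest array. Its difference from LhTERTL/cre+ was -0.76, which 1819 probe sets (3.33%) reached or passed. The files do not say where in the mRNA these 2 probe sets lie, so the average over both, a difference of 1.47, is not a measure of the transgene.

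The other telomerase and telomere protection genes differed little. Of 23 listed genes 20 were measured, and their median difference was -0.11 (0.02 in the short-telomere pair). TERT, as the average of its disagreeing probe sets, was the only member past the 2-fold mark in either pair. The next largest difference was in ACD, which encodes the shelterin protein TPP1 that recruits telomerase. ACD stood at -0.50 in LhTERTL and 0.21 in LhTERTL/cre+, with -0.09 in mock/cre+ and 0.09 in mock. NHP2, a protein of the telomerase ribonucleoprotein, differed by -0.47 between LhTERTL and LhTERTL/cre+.

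TERT lies near the end of the short arm of chromosome 5, and its neighbours there (RefSeq order, GRCh38.p14) were also read. Among the 40 measured genes nearest to it, 20 on each side, 4 were at least 2-fold lower in LhTERTL and 0 at least 2-fold higher. Over all genes these shares were 1.52% and 2.29%, and over the genes of chromosome 5 they were 2.59% and 1.80%. The median difference of the 40 was -0.11, against 0.16 in the short-telomere pair. The 4 were TRIP13 at -1.55, a spindle checkpoint ATPase, LPCAT1 at -1.10, a phospholipid acyltransferase, CEP72 at -1.06, a centrosomal protein, and the pseudogene PDCD6P1 at -1.02. SDHA, a subunit of succinate dehydrogenase, followed at -0.92. In the short-telomere pair LPCAT1 differed by -0.97 and TRIP13 by -0.17.

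Across all genes, 452 (2.29%) were at least 2-fold higher in LhTERTL than in LhTERTL/cre+ and 300 (1.52%) at least 2-fold lower. Over probe sets the counts were 1208 (2.21%) and 899 (1.65%). At 4-fold the excess of higher genes was larger, with 107 (0.541%) higher and 39 (0.197%) lower. The short-telomere pair leaned the other way, with 128 genes (0.647%) at least 2-fold higher and 400 (2.02%) at least 2-fold lower in mock than in mock/cre+.

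Most of the differences past the mark were not shared in the same direction by the long-telomere and short-telomere pairs. Of the 452 genes higher in LhTERTL, 14 (3.1%) were also at least 2-fold higher in mock than in mock/cre+, 116 (25.7%) were at least 2-fold lower there, and 221 (48.9%) differed by under 1.5-fold. Of the 300 lower genes, 52 (17.3%) were also at least 2-fold lower in mock and 6 (2.0%) at least 2-fold higher. Over all 19775 genes, 2.02% were at least 2-fold lower and 0.647% at least 2-fold higher in mock. The shared and the opposite shares all lay above these. The 116 opposite genes were 29.0% of the 400 lower in mock, and the 52 shared lower genes were 13.0% of them. Across the 19775 genes, which are not independent of each other, Pearson's r between the pairs' differences was -0.088 and Spearman's rho was 0.014.

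**Figure D1:**
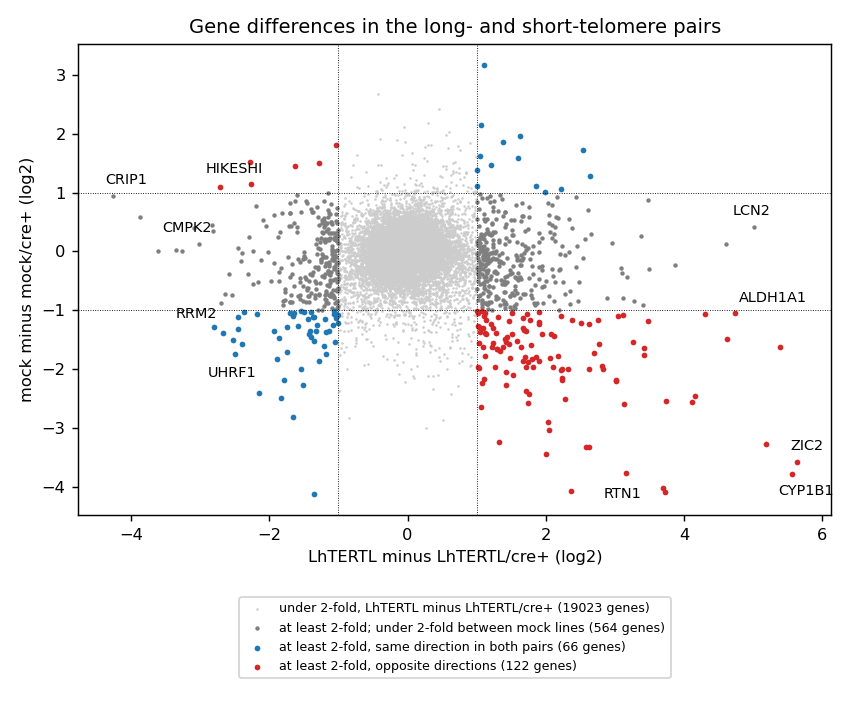
Each point is 1 gene, placed by its log2 difference LhTERTL minus LhTERTL/cre+ (horizontal axis) and mock minus mock/cre+ (vertical axis), with dotted lines at the 2-fold mark. The 116 genes at the lower right were higher in LhTERTL and lower in mock, and 14 genes lie past the mark at the upper right.

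Which array stood apart was read from the values of the 752 genes (3.8%) past the mark in either direction. LhTERTL was at least 2-fold beyond each of the other 3 arrays for 267 of them (35.5%), 166 higher and 101 lower. Each gene was placed in the first group that held, in the order given here, so later groups leave out genes already placed. LhTERTL/cre+ stood apart in that way for 7 of the rest (0.931% of the 752). IL6 and PLAC8 also met this rule but were placed with LhTERTL apart, so 7 is not its full count. For another 192 genes (25.5%) both arrays without Cre lay beyond both arrays with it, and 125 of these were lower without Cre. CCNE2, RRM2 and UHRF1 also had that order but were placed with LhTERTL apart, so 192 is not the full count of that pattern. In the short-telomere pair, where mock was placed first, mock/cre+ stood apart for 95 of the 528 genes past the mark there (2.67% of all), or 18.0%, and mock for 21 (3.98%).

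The 12 genes with the largest positive difference were taken among genes whose probe sets all share a sign. That rule left out genes such as CYP1B1, at 5.57. Among the 12 were LCN2, PLAC8 and IL6, for which the short-telomere lines hardly differed. LCN2, an iron-siderophore-binding lipocalin of epithelial defence, stood at 4.51 in LhTERTL and -0.50 in LhTERTL/cre+, with -0.21 in mock/cre+ and 0.21 in mock. PLAC8 stood at 3.42 in LhTERTL and -1.19 in LhTERTL/cre+, with -0.07 in mock/cre+ and 0.07 in mock. IL6, the inflammatory cytokine, stood at 2.27 in LhTERTL and -1.60 in LhTERTL/cre+, with 0.11 in mock/cre+ and -0.11 in mock. The differences were 32.2-fold for LCN2, 24.4-fold for PLAC8 and 14.6-fold for IL6. LhTERTL was far above the other 3 arrays for each, and LhTERTL/cre+ was the lowest array, with the short-telomere arrays close to each other.

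ALDH1A1, which oxidises retinaldehyde to retinoic acid, stood at 4.02 in LhTERTL and -0.72 in LhTERTL/cre+, with 0.53 in mock/cre+ and -0.53 in mock. FLRT3, a transmembrane adhesion protein, stood at 4.20 in LhTERTL and -1.19 in LhTERTL/cre+, with 0.81 in mock/cre+ and -0.81 in mock. MAP2, a microtubule-associated protein best known from neurons, stood at 3.62 in LhTERTL and -0.69 in LhTERTL/cre+, with 0.53 in mock/cre+ and -0.53 in mock. For all 3, LhTERTL was highest by a wide margin and mock/cre+ came next. Of the 12 genes chosen in this direction, 9 were lower in mock than in mock/cre+ by a factor of at least 2, and LCN2, PLAC8 and IL6 were the exceptions.

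The 12 genes with the largest negative difference, chosen by the same rule on probe set signs, showed less of that reversal. CRIP1, a small LIM-domain protein, stood at -2.85 in LhTERTL and 1.42 in LhTERTL/cre+, with -0.47 in mock/cre+ and 0.47 in mock, a log2 difference of -4.27. PHACTR3, a regulator of protein phosphatase 1 and actin, stood at -3.39 in LhTERTL and 0.48 in LhTERTL/cre+, with -0.29 in mock/cre+ and 0.29 in mock. CMPK2, a mitochondrial nucleotide kinase induced by interferon, stood at -2.48 in LhTERTL and 0.87 in LhTERTL/cre+, with -0.02 in mock/cre+ and 0.02 in mock. LhTERTL lay far below the other 3 arrays each time. The next 9 genes, in order AADACP1, PLCXD3, PABPC5, NAP1L3, C5, TRHDE, TCN1, HIKESHI and PLPPR5, differed by -3.60 to -2.69. C5 encodes a complement component, TRHDE a peptidase that degrades thyrotropin-releasing hormone, and TCN1 a cobalamin-binding protein. Among these 12, TCN1 was at least 2-fold lower in mock than in mock/cre+ and HIKESHI at least 2-fold higher.

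**Figure D2:**
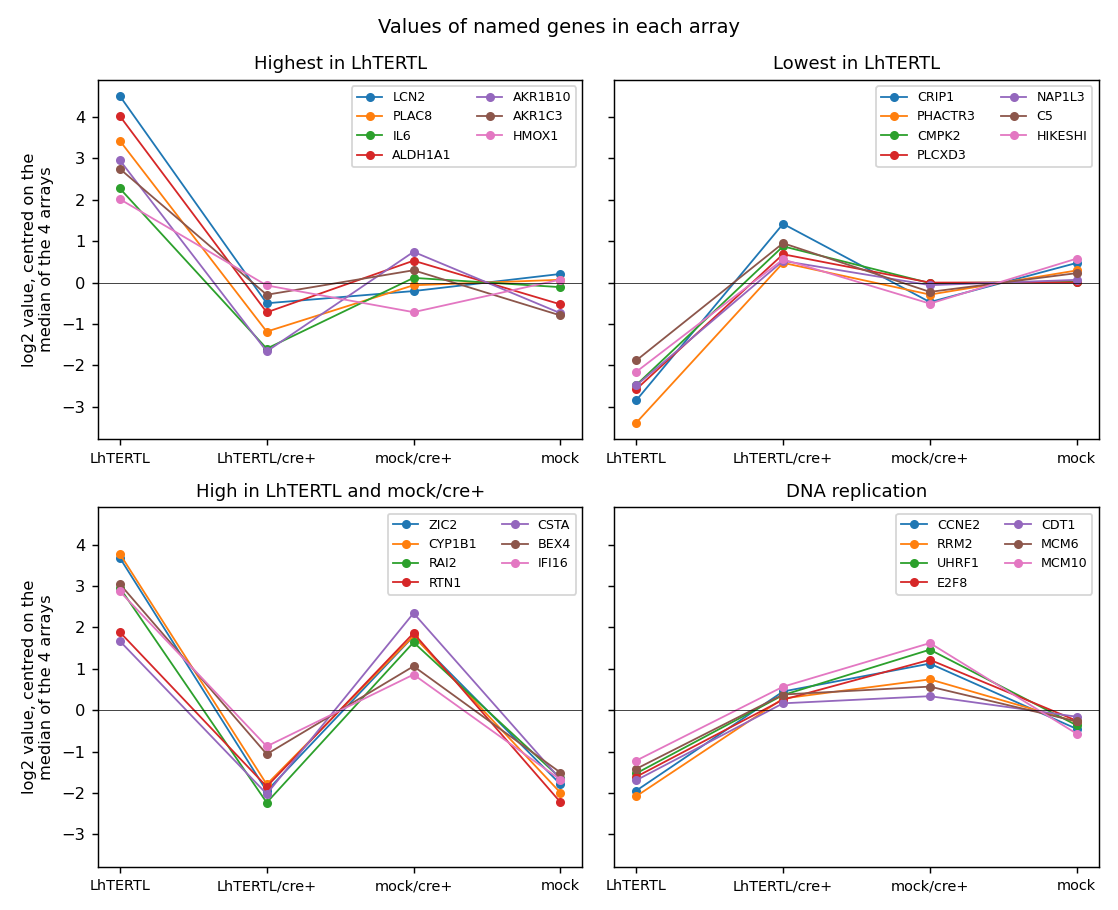
Centred log2 values of named genes (vertical axis) in the 4 arrays (horizontal axis), 1 line per gene. LCN2 reaches 4.51 in LhTERTL, the lowest genes reach -3.39 there, and the genes of the third panel are high in both LhTERTL and mock/cre+.

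Genes of the oxidative and xenobiotic defence, many of them known targets of the transcription factor NRF2, were higher in LhTERTL. Of 29 measured of 32 listed, 9 were at least 2-fold higher and 0 lower, the median difference was 0.56 against -0.01 over all genes, and for 8 genes LhTERTL stood apart. In the short-telomere pair the median was -0.11, with 1 gene at least 2-fold higher and 2 lower in mock. AKR1B10, an aldo-keto reductase that reduces aldehydes and retinal, stood at 2.95 in LhTERTL and -1.66 in LhTERTL/cre+, with 0.74 in mock/cre+ and -0.74 in mock. HMOX1, haem oxygenase, stood at 2.01 in LhTERTL and -0.07 in LhTERTL/cre+, with -0.72 in mock/cre+ and 0.07 in mock. GPX2, a glutathione peroxidase, stood at 1.52 in LhTERTL and -0.52 in LhTERTL/cre+, with 0.40 in mock/cre+ and -0.36 in mock. LhTERTL was the highest array for all 3.

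AKR1C3 differed by 3.04, AKR1C2 by 2.88 and AKR1C1 by 1.91 between LhTERTL and LhTERTL/cre+. These enzymes reduce steroids and are near-identical in sequence, so their values are uncertain where probes can read several of them. The 3 probe sets of AKR1C2 ranged from -0.23 to 4.75. NQO1, the quinone reductase, differed by 1.24, ALDH3A1 by 1.10 and SRXN1, which restores peroxiredoxins, by 1.09.

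The antioxidant response core TGACNNNGC, searched on both strands, lay in the 250 bases before the start of 7 of 24 list members with a promoter in the RefSeq table (29.2%), and in 3013 of all 27305 promoters (11.03%). The 7 members with a match had a median difference of 0.04 and the 17 without had 0.41. Stretches from GPX2 and GCLM, a subunit of glutamate-cysteine ligase, are shown for orientation on build GRCh38.p14, 5′ to 3′ along the gene, with the match in capitals. GPX2 differed by 2.04 and GCLM by 0.93. A match describes the letters only.
GPX2, chr14:64942834-64942892, minus strand: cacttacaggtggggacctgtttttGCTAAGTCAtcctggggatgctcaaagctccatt
GCLM, chr1:93909431-93909489, minus strand: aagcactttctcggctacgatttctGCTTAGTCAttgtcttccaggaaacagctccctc

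Genes of aldehyde and retinoid metabolism overlap with that list and had a median difference of 0.29. Of 21 measured members, 5 (23.8%) were at least 2-fold higher and 0 lower. In the short-telomere pair the median was -0.12, with 0 higher and 2 (9.52%) lower. Besides ALDH1A1 the 5 higher in LhTERTL included RDH10 at 1.70, which makes retinaldehyde, and DHRS3 at 1.23, which reduces it back to retinol. RDH10 stood at 0.88 in LhTERTL and -0.82 in LhTERTL/cre+, with -0.06 in mock/cre+ and 0.03 in mock. Its 4 probe sets ranged from 0.00 to 2.61.

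Epithelial genes were higher in LhTERTL. Of 30 measured of 34 listed, 10 (33.3%) were at least 2-fold higher and 0 lower, with a median difference of 0.54. In the short-telomere pair 1 was higher and 2 lower, with a median of 0.05. CDH1, which encodes E-cadherin of adherens junctions, stood at 0.94 in LhTERTL and -0.74 in LhTERTL/cre+, with 0.02 in mock/cre+ and 0.00 in mock. ESRP1, an epithelial splicing regulator, stood at 1.39 in LhTERTL and -1.25 in LhTERTL/cre+, with -0.64 in mock/cre+ and 0.64 in mock. OCLN, the tight junction protein occludin, stood at 1.93 in LhTERTL and -0.17 in LhTERTL/cre+, with -0.29 in mock/cre+ and 0.16 in mock. LhTERTL was highest and LhTERTL/cre+ lowest for CDH1 and ESRP1, while for OCLN the other 3 arrays lay close together. ELF3, an epithelial transcription factor, differed by 1.91, CLDN7 by 1.91, CD24 by 1.87, EPCAM by 1.15 and the desmosomal cadherin DSG2 by 1.03. Of 13 measured keratins, KRT15 alone passed the mark, at -1.42.

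Mesenchymal and matrix genes had medians near 0. The 25 measured mesenchymal genes had a median of -0.07 with 0 at least 2-fold higher and 3 lower, and the 29 matrix and integrin genes a median of -0.11 with 1 higher and 2 lower. PLAT, tissue plasminogen activator, stood at -2.26 in LhTERTL and -0.44 in LhTERTL/cre+, with 0.72 in mock/cre+ and 0.44 in mock. SPARC, a collagen-binding matrix protein, stood at -1.82 in LhTERTL and 0.11 in LhTERTL/cre+, with 1.25 in mock/cre+ and -0.11 in mock. COL5A2, a collagen chain, differed by -1.81, while COL5A1, its partner chain, differed by 1.17. LhTERTL was the lowest array for PLAT and SPARC. NT5E and CCN2 were lower in both lines without Cre, at -1.35 and -1.32 between LhTERTL and LhTERTL/cre+ and at -1.53 and -1.35 between mock and mock/cre+.

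Cytokine and chemokine genes split, with 4 of 30 measured members (13.3%) at least 2-fold higher and 4 (13.3%) lower, and a median of -0.04. Besides LCN2 and IL6 the higher members were IL24 at 2.19 and PTGS2 at 1.58. LCN2, a lipocalin, and PTGS2, the inducible cyclooxygenase, are on this list but are not cytokines. The lower members were CXCL1 at -2.55, IL1B at -2.45, CXCL6 at -2.15 and IL33 at -1.59. CXCL1, a neutrophil chemoattractant, stood at -1.42 in LhTERTL and 1.13 in LhTERTL/cre+, with 0.37 in mock/cre+ and -0.37 in mock. IL1B stood at -0.52 in LhTERTL and 1.93 in LhTERTL/cre+, with 0.52 in mock/cre+ and -0.80 in mock. LhTERTL/cre+ was the highest array for both, so IL6 and IL1B ran in opposite directions in this pair.

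In the list of S100 and secretory defence genes, 7 of 19 measured members (36.8%) were at least 2-fold higher and 1 (5.26%) lower. LCN2 is on this list too and is counted here again. The median was 0.36, against -0.05 in the short-telomere pair. S100A14 stood at 2.03 in LhTERTL and -0.45 in LhTERTL/cre+, with 0.26 in mock/cre+ and -0.26 in mock. The member below the mark was PI3, the elastase inhibitor elafin, at -1.63, which in the short-telomere pair stood at 1.45. Interferon-stimulated genes showed no shared direction: 1 of 39 (2.56%) was higher and 2 (5.13%) lower, with a median of -0.05. Over all genes these shares were 2.29% and 1.52%. SAMD9 was the member above the mark, at 1.80, and CMPK2 and IFI44L at -1.36 the members below. IFI16, a DNA sensor outside that list, stood at 2.87 in LhTERTL and -0.87 in LhTERTL/cre+, with 0.86 in mock/cre+ and -1.68 in mock. Antigen presentation genes had a median of 0.28 with 2 of 23 (8.70%) higher, HLA-DMA at 1.94 and HLA-DQB1 at 1.12, and 0 lower. HLA-DMA stood at 0.55 in LhTERTL and -1.39 in LhTERTL/cre+, with 0.13 in mock/cre+ and -0.13 in mock. For it LhTERTL/cre+ was the array that stood apart. HLA-DQB1 was under the mark with the median over its probe sets, at 0.78, and without probe sets named _s_at or _x_at, at 0.83, where the list's median was 0.07. HLA genes resemble each other closely in sequence, and their values are uncertain for that reason.

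Genes of DNA replication were lower in LhTERTL, and their median lay farther from 0 than that of any other of the 31 lists. Of 37 measured of 38 listed genes of G1/S and DNA replication, 24 (64.9%) were at least 2-fold lower and 0 higher, with a median difference of -1.18. The same list had a median of -0.84 between mock and mock/cre+, with 15 genes at least 2-fold lower and 0 higher. Of the 37 genes, 36 were below 0 in both pairs, against 23% of all genes. Set against mock, the list median was -0.70 in LhTERTL, 0.51 in LhTERTL/cre+ and 0.84 in mock/cre+, so LhTERTL was lowest and mock/cre+ highest.

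CCNE2, a G1 cyclin that activates CDK2, stood at -1.94 in LhTERTL and 0.45 in LhTERTL/cre+, with 1.13 in mock/cre+ and -0.45 in mock. RRM2, the regulated subunit of ribonucleotide reductase, stood at -2.08 in LhTERTL and 0.28 in LhTERTL/cre+, with 0.75 in mock/cre+ and -0.28 in mock. UHRF1, which carries DNA methylation through replication, stood at -1.53 in LhTERTL and 0.37 in LhTERTL/cre+, with 1.46 in mock/cre+ and -0.37 in mock. All 3 were lowest in LhTERTL and highest in mock/cre+. MCM6, a subunit of the replicative helicase, differed by -1.80 and TYMS, thymidylate synthase, by -1.77. CDT1, which loads that helicase, differed by -1.86.

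E2F-type motifs were searched in the promoters of this list because E2F factors are known to drive many of its genes. The letters searched were TTTGGCGC, TTTCCCGC, TTTGCCGC and TTTCGCGC, on both strands, and overlapping matches were joined. A match lay in 13 of the 32 list members with a promoter (40.6%) and in 761 of 27305 promoters in all (2.79%). The median difference was -1.11 for members with a match and -1.18 for the 19 without. Stretches from 4 of the genes lower in LhTERTL are given from RefSeq on build GRCh38.p14, 5′ to 3′ along the gene, with the match in capitals.
UHRF1, chr19:4909462-4909500, plus strand: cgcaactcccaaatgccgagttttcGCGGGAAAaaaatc
CDT1, chr16:88803729-88803786, plus strand: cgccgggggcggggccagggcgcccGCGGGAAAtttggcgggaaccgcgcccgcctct
MCM6, chr2:135876559-135876620, minus strand: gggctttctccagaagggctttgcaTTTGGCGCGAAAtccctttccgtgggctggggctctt
TYMS, chr18:657589-657646, plus strand: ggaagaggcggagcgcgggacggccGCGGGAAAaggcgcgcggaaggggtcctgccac

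Mitotic genes were lower by less. The 34 genes of G2/M and mitosis had a median of -0.62, with 2 (5.88%) at least 2-fold lower and 0 higher. The 2 were NDC80, a kinetochore protein, at -1.15 and CDK1, the mitotic kinase, at -1.01. With the median over its probe sets CDK1 was under the mark, at -0.96. Between mock and mock/cre+ their median was -0.50, with 7 at least 2-fold lower, and 32 of the 34 were below 0 in both pairs. Repair genes were also mostly below 0, with a median of -0.45 and 5 of 24 (20.8%) at least 2-fold lower. The 5 were led by BRIP1, a helicase that works with BRCA1, at -1.49, RAD54B at -1.45 and EXO1 at -1.43. In the short-telomere pair the median of the repair genes was -0.47 with 3 lower. The replication-dependent histone genes went the other way, with a median of 0.63 and 2 of 11 measured members (18.2%) at least 2-fold higher. Set against mock, their median was -0.19 in LhTERTL, -1.17 in LhTERTL/cre+ and -0.71 in mock/cre+, so LhTERTL was not above mock. H1-2 differed by 1.65 and H4C8 by 1.63, and in the short-telomere pair the list's median was 0.71.

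CDKN1A, which encodes the CDK inhibitor p21, stood at 2.09 in LhTERTL and -0.34 in LhTERTL/cre+, with -0.57 in mock/cre+ and 0.34 in mock. LhTERTL was the highest array, and mock was second, so CDKN1A was higher in both lines without Cre. Among 18 measured CDK inhibitors and p53 targets it alone (5.56%) was past the mark in this direction in the long-telomere pair. In the other direction 0 were past it, and the list's median was 0.07. In the short-telomere pair 3 of the 18 (16.7%) were at least 2-fold higher and 0 lower in mock, with a median of 0.14. MYC differed by -0.95, and the 18 MYC and ribosome biogenesis genes had a median of -0.34 with 15 below 0, against 51.3% of all genes, and 0 past the mark in either direction.

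**Figure D3:**
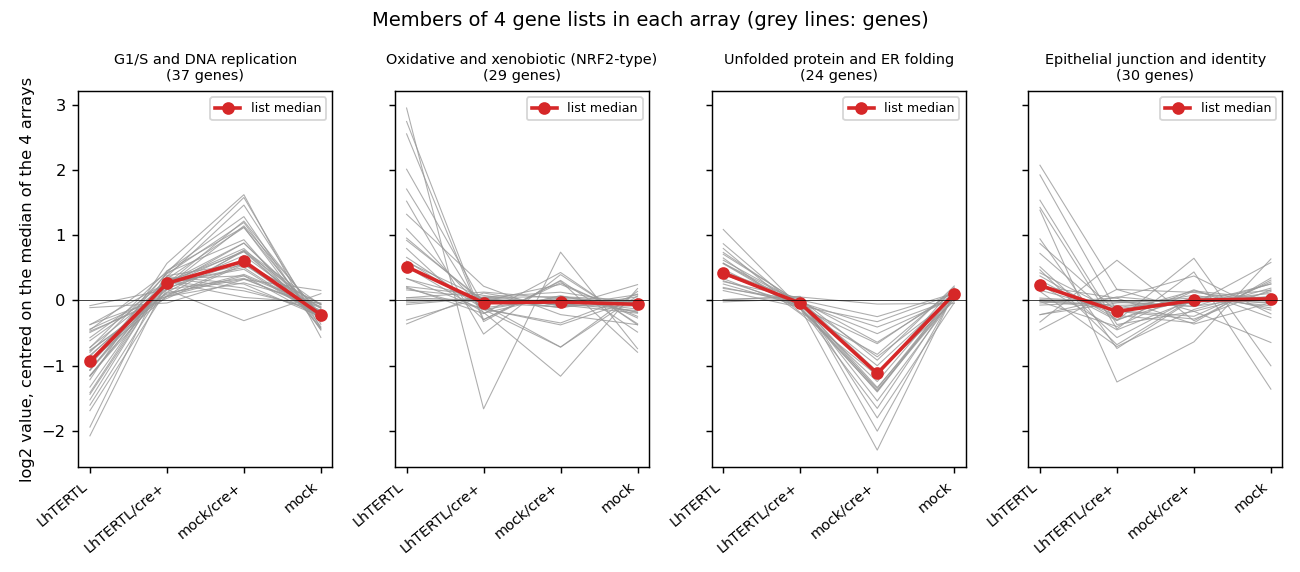
Centred log2 values (vertical axis) of the members of 4 gene lists in the 4 arrays, with a grey line per gene and the list median in red. Replication genes are lowest in LhTERTL and highest in mock/cre+, the oxidative and epithelial genes are highest in LhTERTL, and the folding genes are lowest in mock/cre+.

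Genes of protein folding in the endoplasmic reticulum were higher in both lines without Cre, and their median difference was 0.44 in the long-telomere pair and 1.25 in the short-telomere pair. Of 24 measured of 25 listed, 2 (8.33%) were at least 2-fold higher in LhTERTL and 0 lower. Between mock and mock/cre+, 16 (66.7%) were at least 2-fold higher and 0 lower. Both pairs were above 0 for 21 of the 24, against 26.8% of all genes. HSPA5, the chaperone BiP, stood at 0.01 in LhTERTL and 0.06 in LhTERTL/cre+, with -2.01 in mock/cre+ and 0.10 in mock. It was low in mock/cre+ alone. ERO1B, a thiol oxidase of the endoplasmic reticulum, stood at 1.09 in LhTERTL and -0.11 in LhTERTL/cre+, with -1.35 in mock/cre+ and 0.11 in mock.

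The ER stress element, CCAAT and CCACG with 9 bases of any kind between them, was searched on both strands. It lay in 7 of the 21 list members with a promoter (33.3%) and in 22 of all 27305 promoters (0.0806%). The median difference between LhTERTL and LhTERTL/cre+ was 0.78 for the 7 and 0.52 for the other 14. Stretches from CRELD2, HSP90B1 and HSPA5 are given from RefSeq on GRCh38.p14, 5′ to 3′ along the gene, with the element in capitals, as examples with larger and smaller differences. CRELD2 differed by 1.002, HSP90B1, the chaperone GRP94, by 0.85, and HSPA5 by -0.05.
CRELD2, chr22:49918529-49918597, plus strand: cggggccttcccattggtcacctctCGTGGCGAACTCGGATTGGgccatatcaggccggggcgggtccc
HSP90B1, chr12:103930191-103930259, plus strand: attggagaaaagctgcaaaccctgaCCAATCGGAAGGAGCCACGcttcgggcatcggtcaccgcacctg
HSPA5, chr9:125241366-125241434, minus strand: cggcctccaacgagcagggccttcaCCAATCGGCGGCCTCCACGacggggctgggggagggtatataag

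The amino acid stress genes driven by ATF4 and CHOP had a median of 0.10 in the long-telomere pair and 0.89 in the short-telomere pair. Of 28 measured, 3 (10.7%) were at least 2-fold higher in LhTERTL and 1 (3.57%) lower, against 10 (35.7%) higher and 1 (3.57%) lower in mock. DDIT4, an inhibitor of mTORC1, differed by 1.58 and ATF3 by 1.04. The 3 probe sets of ATF3 ran from 0.10 to 1.80, and it was under the mark, at 0.65, without probe sets named _s_at or _x_at. CHAC1, which degrades glutathione, stood at -0.51 in LhTERTL and 0.51 in LhTERTL/cre+, with -1.01 in mock/cre+ and 0.81 in mock, so the pairs ran in opposite directions.

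There were 14 genes at least 2-fold higher in both lines without Cre. They were AGR2, BHLHA15, CRELD2, ERO1B, ESRP1, H4C8, HSPBAP1, IL20RB, LAMP3, PRR15, PRSS16, S100P, SLITRK6 and WIPI1. AGR2, a disulfide isomerase of secretory cells, differed by 1.38 in the long-telomere pair and 1.87 in the short-telomere pair. BHLHA15, the transcription factor MIST1 of secretory cells, differed by 1.11 and 3.16 in the same order. WIPI1, an autophagy protein, differed by 1.61 and 1.58.

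**Figure D4:**
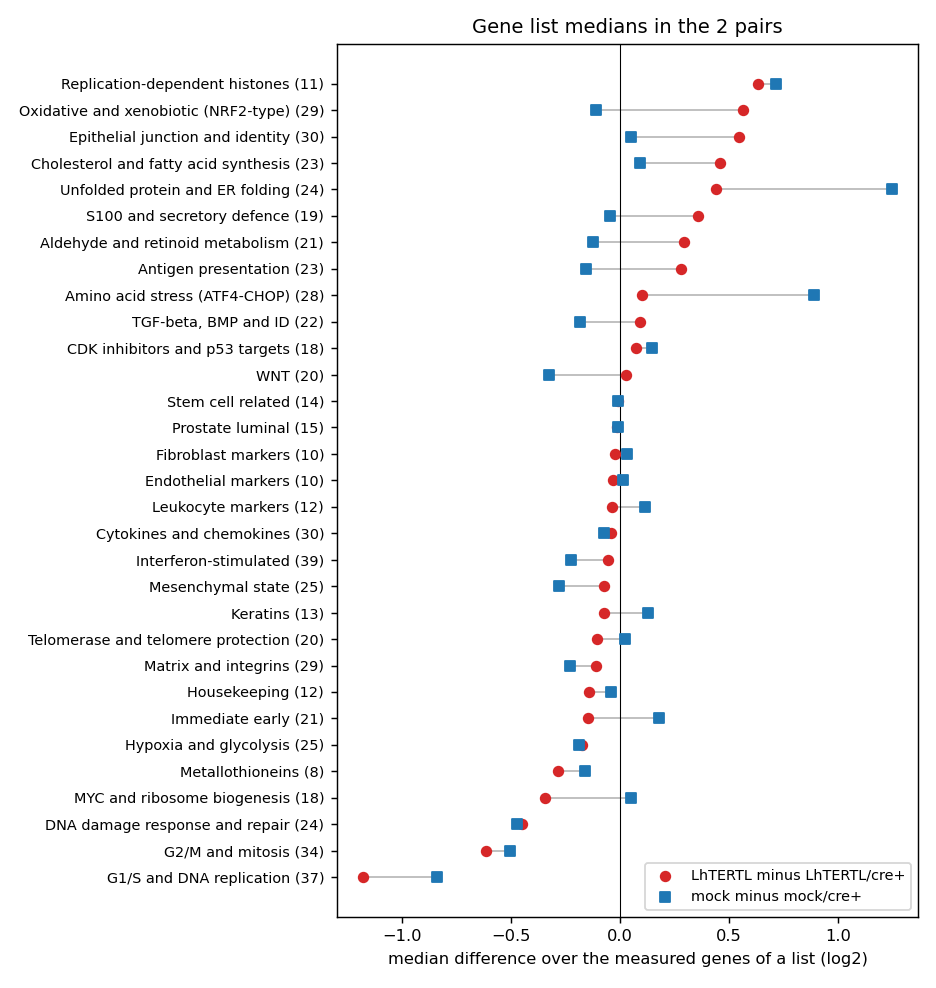
Median log2 difference over the measured genes of each list (horizontal axis, number of genes in parentheses) for LhTERTL minus LhTERTL/cre+ (circles) and mock minus mock/cre+ (squares). G1/S and DNA replication is lowest in both pairs, at -1.18 and -0.84, and folding genes are highest in the short-telomere pair, at 1.25.

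The 116 genes higher in LhTERTL but lower in mock included the largest gaps between the pairs. CYP1B1, a cytochrome P450 that metabolises oestrogens and polycyclic hydrocarbons, stood at 3.78 in LhTERTL and -1.79 in LhTERTL/cre+, with 1.79 in mock/cre+ and -1.99 in mock. Its 4 probe sets differed by 0.00 to 8.46 between LhTERTL and LhTERTL/cre+, so its average is uncertain. ZIC2, a zinc finger transcription factor of neural development, stood at 3.68 in LhTERTL and -1.95 in LhTERTL/cre+, with 1.79 in mock/cre+ and -1.79 in mock. Both genes were high in LhTERTL and mock/cre+ and low in LhTERTL/cre+ and mock. RAI2, RTN1, CSTA, BEX4, RCAN2 and IFI16 were likewise above 0 in LhTERTL and mock/cre+ and below 0 in LhTERTL/cre+ and mock. CSTA, the protease inhibitor cystatin A, stood at 1.67 in LhTERTL and -2.02 in LhTERTL/cre+, with 2.35 in mock/cre+ and -1.67 in mock.

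The 6 genes lower in LhTERTL but higher in mock were CHAC1, FRMD3, HIKESHI, NBPF8, PI3 and TMEM47. HIKESHI, which carries HSP70 into the nucleus under heat stress, stood at -2.16 in LhTERTL and 0.56 in LhTERTL/cre+, with -0.51 in mock/cre+ and 0.58 in mock. TMEM47 stood at -1.47 in LhTERTL and 0.80 in LhTERTL/cre+, with -0.71 in mock/cre+ and 0.81 in mock. Both were lowest in LhTERTL, and mock/cre+ was also below the other 2 arrays.

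Neighbouring genes were examined by the running median of 15 genes in RefSeq order (GRCh38.p14) along each chromosome. Of 19364 windows, 31 (0.16%) had a median of -0.4 or less and 20 (0.103%) of 0.4 or more. The lowest window ran from TMEM126B to FZD4 on chromosome 11, with a median of -0.52. All 15 of its genes were below 0, and 5 were at least 2-fold lower in LhTERTL, with a median of 0.10 in the short-telomere pair. The 5 were HIKESHI at -2.72, PRSS23, a serine protease, at -2.05, EED, a subunit of Polycomb repressive complex 2, at -1.84, PICALM, a clathrin assembly protein, at -1.70, and FZD4, a WNT receptor, at -1.19. The probe sets of 3 of them disagreed, with ranges of -3.83 to 0.05 for PICALM, -3.44 to -0.24 for EED and -3.45 to -0.14 for PRSS23.

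The highest window ran from CDK6 to PPP1R9A on chromosome 7, with a median of 0.62 and 12 of 15 genes above 0. PEG10 at 2.04 and SGCE at 1.35, an imprinted neighbouring pair expressed from the paternal copy, were among its 4 genes at least 2-fold higher, with PPP1R9A at 1.82 and SAMD9 at 1.80. A window on the X chromosome from TCEAL2 to BEX3 had a median of 0.52 and held BEX4 at 4.11, BEX2 at 3.38 and TCEAL8 at 1.51. A second X window, from REPS2 to MAP7D2, had a median of 0.47 against -0.48 in the short-telomere pair and included MAP7D2 at 2.07. By chromosome, the share of genes at least 2-fold higher in LhTERTL ran from 0.727% on chromosome 16 to 4.07% on chromosome 7.

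**Figure D5:**
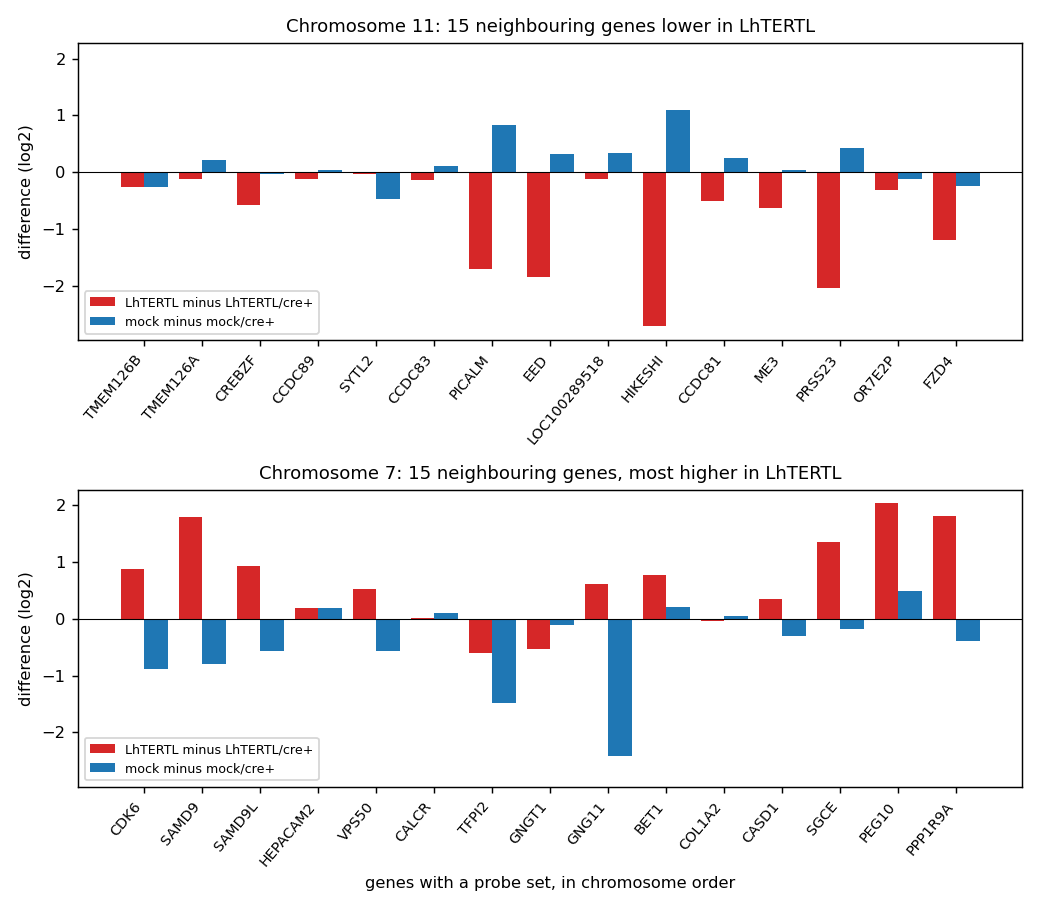
Log2 differences (vertical axis) of 15 neighbouring genes in chromosome order (horizontal axis) for LhTERTL minus LhTERTL/cre+ (left bar of each gene) and mock minus mock/cre+ (right bar). All 15 genes on chromosome 11 are below 0 in the long-telomere pair, and 12 of 15 on chromosome 7 are above 0.

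Cholesterol and fatty acid genes lay mostly above 0 in the long-telomere pair, 21 of 23 measured members against 48.5% of all genes, with a median of 0.46 and 2 past the mark. These were SCD, the stearoyl-CoA desaturase, at 1.81 and INSIG1, which restrains sterol synthesis, at 1.52. Of 25 hypoxia and glycolysis genes, NDRG1 at 1.64 and VEGFA at 1.41 passed the mark while the list's median was -0.18. Of 20 WNT genes, 2 were at least 2-fold higher, the receptor FZD7 at 2.11 and RNF43 at 1.67, a ligase that removes such receptors, and WNT7A was lower at -1.05. Of 22 TGF-beta, BMP and ID genes, BAMBI at 1.49 and BMP2 at 1.01 were higher, and ID2 at -1.71 and INHBA at -1.21 lower. FOSL1, a subunit of AP-1, was lower at -1.86 among 21 immediate early genes, where ATF3 was higher. Among 14 stem cell related genes, PROM1, which encodes CD133, was higher at 1.64 (7.14%), and HMGA2, a chromatin protein, was lower at -1.17 (7.14%). The 9 probe sets of HMGA2 ranged from -2.26 to 0.00, so its average is uncertain. The 8 metallothioneins had a median of -0.29 and the 15 prostate luminal genes a median of -0.02, with 0 members of either list past the mark. Without probe sets named _s_at or _x_at the metallothionein median was 0.23, so its direction turned.

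Markers of cells that a culture of PC-3 should not hold were under the mark as averages over probe sets. The 12 measured leukocyte markers ran from -0.32 to 0.20, the 10 fibroblast markers from -0.15 to 0.53 and the 10 endothelial markers from -0.95 to 0.23. COL1A1, a fibroblast collagen chain with the value of 0.53, stood at 1.62 in its most variable probe set, past the mark. The lowest endothelial value was that of KDR, a VEGF receptor. The 12 measured housekeeping genes had a median of -0.14, with 0 past the mark in either direction. Their levels cannot be read from centred values.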

How the data were processed

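Total RNA from 4 PC-3 lines was hybridised to Affymetrix arrays. The values the authors deposited are on the log2 scale and come from RMA, per the submitters' processing notes, which give no version. In that table each probe set's median over the 4 arrays was 0 within 1e-05, so levels are lost. The 2 deposited probe lists were read only to check their column headers. Depth does not apply, and 1 array per line limits the precision.

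Of 54675 probe sets, 62 controls were left out, 41091 had 1 symbol in the platform annotation, 1801 several and 11721 none. Symbols were matched to RefSeq (41037 probe sets). A gene is the mean of its probe sets. Python 3.11.15, numpy 2.4.6 and pandas 2.3.3 were used, and the counting was tested on simulated data. Differences were counted at 2-fold. No test was run.

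Genes named were TERT, the 12 largest differences each way among genes whose probe sets share a sign, the 3 largest of each of 31 lists, and the 6 largest gaps between the pairs each way. Other genes given by name, the runs of neighbours and the motifs were chosen after their values were seen. Members and lists were chosen with earlier results of these data known. Alternatives changed the probe set summary, the probe sets used, array centring, the fold mark and the window.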

Additional observations from a re-analysis of the deposited data

Results flagged for a closer look

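Results were taken up here because the long-telomere and short-telomere pairs went past 2-fold in opposite directions. The difference between the pairs was not tested. Of the genes at least 2-fold higher in LhTERTL than in LhTERTL/cre+, 116 were at least 2-fold lower in mock than in mock/cre+, and 6 genes did the reverse. Among the genes named, the gap between the pairs, (LhTERTL minus LhTERTL/cre+) minus (mock minus mock/cre+) in log2, was 9.36 for CYP1B1, 9.21 for ZIC2, 8.47 for RAI2, 7.82 for RTN1, 7.71 for CSTA and 7.02 for FLRT3. It was 6.68 for BEX4, 6.62 for RCAN2, 6.28 for IFI16, 6.10 for AKR1B10, 5.80 for ALDH1A1 and 5.37 for MAP2. It was 4.13 for AKR1C3, 4.07 for FZD7, 2.98 for VLDLR and 2.81 for RNF43. The gap ran the other way for HIKESHI at -3.81, TMEM47 at -3.79 and PI3 at -3.08.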

How the results depend on the processing

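With 1 array per line no replicate could be left out. No paired analysis was possible because each line has 1 array and no test was run. Median over probe sets, array centring and probe sets without _s_at or _x_at names left all counts within 1.5 times, except that the last gave 783 higher probe sets. Taking each gene from its most variable probe set (highest SD over the arrays), the higher and lower genes were 774 and 577 for LhTERTL against LhTERTL/cre+ and 242 and 771 for mock against mock/cre+. The shared and opposite counts were then 32 and 218 for higher and 90 and 14 for lower genes, the gaps past 2-fold 1454 higher and 873 lower, and the classes 476 (LhTERTL apart), 14 (LhTERTL/cre+ apart), 363 (both without Cre) and 498 (none of these). At 1.5-fold, by construction, the counts were larger: 3145 and 3015 probe sets, 1142 and 1004 genes, 655 and 1177 genes in the short-telomere pair, 120 and 297 shared and opposite among higher genes, 250 and 69 among lower genes, and classes of 879, 37, 576 and 654. At 4-fold they were 275 and 102 probe sets, 107 and 39 genes, 7 and 57 genes, 0 and 25, 1 and 0, and classes of 39, 0, 36 and 71. All 248 recomputed list medians moved by under 1.5-fold, the largest move being 0.52 for the metallothioneins, whose median was 0.23 and not -0.29 without _s_at and _x_at probe sets. The sign also changed in 14 other recomputed medians, each at most 0.16 in size. Of 421 values of named genes, 398 stayed close, 22 moved by more than 1.5-fold and 1 that was past 2-fold changed sign. The most variable probe set gave 8.46 for CYP1B1, 3.70 for TERT, 2.93 for HLA-DQB1, -3.50 for TMEM47, and, newly past 2-fold, 1.62 for COL1A1 and 1.79 for SLC2A3. HLA-DQB1 (0.78) and CDK1 (-0.96) lost their 2-fold call with the median over probe sets, and HLA-DQB1 (0.83) and ATF3 (0.65) without _s_at and _x_at probe sets. That change of sign was in AKR1C2, which was at -0.23 without _s_at and _x_at probe sets, which leaves 1 of its probe sets. Windows of 9 and 31 genes, chosen after seeing the data, kept the sign of all 6 runs. They share their centre with the runs and hold some of the same genes, so a kept sign is no separate check. With 9 genes the medians were 0.19 for CDK6 to PPP1R9A, 0.41 for TCEAL2 to BEX3 and 0.13 for REPS2 to MAP7D2. They were -0.52 for TMEM126B to FZD4, -0.51 for MAEA to ZFYVE28 and -0.12 for TMEM80 to CHID1. With 31 genes they lay between -0.27 and -0.14 for the lower runs and between 0.15 and 0.33 for the higher runs.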
